A study of Mus musculus with 2 samples.

Results

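The Ly6c2 monocytes of pancreatic tumours were 110 of 22472 quality-passing cell barcodes, 21 from control and 89 from knockout tumours. They were chosen by 8 conditions on unique molecular identifiers (UMIs), the counts of distinct captured transcripts, applied to barcodes in which 500 or more genes were seen and mitochondrial UMIs were no more than 15%. A member had at least 1 Ly6c2 UMI and at least 3 Lyz2 UMIs. It had fewer than 5 UMIs of C1qa, C1qb and C1qc together, which mark tissue macrophages, and none of the neutrophil gene Csf3r or the dendritic cell genes Cd209a, Xcr1 and Clec9a. It had at most 1 UMI of Cd3d, Cd3e, Cd3g and Trac, which mark T cells, and at most 5 of the epithelial keratins Krt8, Krt18 and Krt19. These genes chose the cells, so their levels are given as a description.

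The study took KPC tumours, which grow from implanted mouse pancreatic cancer cells, at day 21 after orthotopic implantation and profiled their live cells by 10x Genomics 3′ single-cell RNA-seq. The control mice were Porcnfl/fl littermates, labelled WT although they carry the floxed Porcn allele. The knockout mice were Csf1r-Cre;Porcnfl/fl, in which Cre recombinase under the Csf1r promoter deletes Porcn in cells of the myeloid lineage that use this promoter, monocytes as well as macrophages. The stated purpose was to see how the tumour's cells differ when myeloid cells cannot secrete Wnt proteins, which need the enzyme encoded by Porcn. Tumours of 5 mice per genotype were pooled into 1 library each. There was therefore no replicate, no test between genotypes was possible, and every interval given here is a 95% interval that covers counting error only.

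Classical monocytes leave the bone marrow through the chemokine receptor Ccr2, carry high Ly6C on their surface and enter inflamed tissues and tumours. There they lose Ly6C as they become macrophages or acquire antigen-presenting features, and interferons switch on a large set of genes in them. In pancreatic tumours they are a main source of macrophages, some of which restrain T cells, for example through arginase. Neutrophil precursors also transcribe Ly6c2 and Lyz2, the lysozyme gene, so these genes alone do not separate the lineages. Ly6c2 (chr15:75108158-75111970, minus strand, GRCm38) has relatives on the same chromosome, Ly6c1 and Ly6i, and how the submitters' counting divided reads among them is not given in the sources used here.

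The members' UMIs came to 136873 in control and 455013 in knockout. Their median depth was 4643 UMIs per cell in control and 4597 in knockout. At the edges of the rule, 5 control and 17 knockout members had exactly 1 Ly6c2 UMI, and 56 and 72 barcodes met every other condition with no Ly6c2 UMI. With 2 Lyz2 UMIs and every other condition met there were 5 and 7 barcodes, against 2 and 3 members with exactly 3. A C1q sum of 5 to 9 alone kept out 1 and 4 barcodes, and 19 control and 80 knockout members had a C1q sum of 0. A Ly6c2 UMI was found in 0.382% of control and 1.60% of knockout epithelial barcodes (median depths 14136 and 15507 UMIs), which should lack the gene. The libraries had 46 barcode sequences in common, none of them a member's. The doublet caller Scrublet marked 0 control and 3 knockout members.

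The label did not hold for all members: they fell into 2 kinds with no cell between them. In 11 control and 4 knockout members, S100a8 and S100a9, the alarmin genes of neutrophils and some monocytes, together gave 501 to 6505 UMIs per cell in control and 2520 to 5346 in knockout. In the remaining 10 control and 85 knockout members this sum was at most 3 and 2 UMIs. The first kind is called granule-gene members here and the second monocyte-gene members, separated at 100 UMIs, a value set after the gap had been seen. Granule-gene members made up 52.4% (29.8 to 74.3) of the control members and 4.49% (1.24 to 11.1) of the knockout members.

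The granule-gene members carried the genes of neutrophil granule formation. Ngp, a granule protein gene, had 3167 UMIs in the control cells and was found in 11 of 11, at 33 to 687 UMIs per cell. Camp, the cathelicidin precursor gene, had 3846 UMIs in 11 of 11 control cells, and Ltf, the lactoferrin gene, had 482 in 11 of 11. In the 4 knockout cells the same genes had 2200, 4055 and 315 UMIs. None of Ngp, Camp, Ltf, Retnlg and Ly6g had a UMI in any of the 95 monocyte-gene members. The reverse held for monocyte genes: the granule-gene members of both libraries had 0 UMIs of Ccr2, Csf1r and F13a1. Among the 182 control and 90 knockout neutrophils, which are barcodes with a Csf3r UMI and at least 10 S100a8 and S100a9 UMIs, Ngp stood at 12240 and 2100 counts per 1000000 UMIs (CPM), against 37280 and 36261 CPM in the granule-gene members. The condition of no Csf3r UMI alone kept out a further 26 control and 6 knockout barcodes with over 100 S100a8 and S100a9 UMIs.

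**Figure D1:**
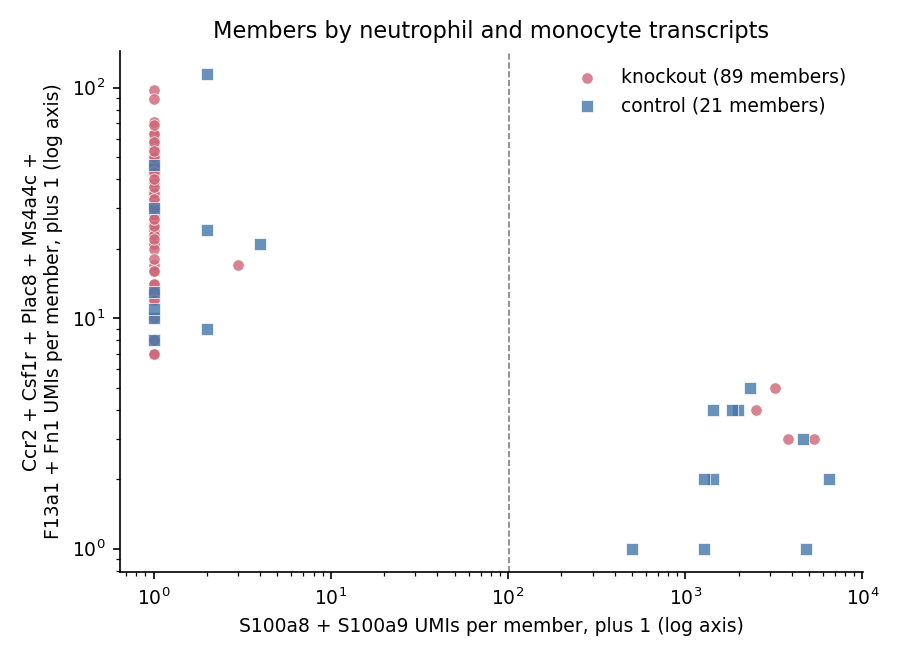
Each point is 1 member, with its S100a8 and S100a9 UMIs plus 1 on the horizontal log axis and its UMIs of Ccr2, Csf1r, Plac8, Ms4a4c, F13a1 and Fn1 plus 1 on the vertical log axis, control and knockout in separate colours and the dashed line at 100. Granule-gene members sit at the right with 0 to 4 monocyte-gene UMIs, and all others sit at the left with 6 to 113.

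The monocyte-gene members carried the label's genes. Ccr2 had a UMI in 7 of 10 control and 63 of 85 knockout members, and Csf1r, the receptor of the macrophage growth factor, in 7 and 64. Plac8, a gene abundant in Ly6C-high monocytes, was found in 9 of 10 and 79 of 85, and Ms4a4c in 7 and 77. F13a1, which encodes coagulation factor XIII subunit A, was found in 8 and 54, and Fn1, the fibronectin gene, in 7 and 66. Detection was incomplete at a median depth of 4174 UMIs in control and 4166 in knockout, and 5 of the 10 control cells rested on a single Ly6c2 UMI. Ly6c2 ran from 1 to 28 UMIs per control cell with a median of 1.5, and from 1 to 44 with a median of 5 per knockout cell. The dendritic cell list summed to 212 CPM in control and 107 in knockout, with 7 of 10 genes at 0 in each, among them Flt3 and Zbtb46. The plasmacytoid dendritic cell list summed to 193 and 185 CPM, with 6 and 4 of 8 genes at 0, Siglech at 0 in both and most UMIs in Tcf4 and Runx2.

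Against C1q macrophages of the same library, 147 control and 145 knockout cells with a C1q sum of 5 or more, the monocyte-gene members had more of several early monocyte genes. Plac8 stood at 2793 CPM against 294 in control and at 4428 against 368 in knockout. Of its 145 UMIs in the control members, 55.9% were in 1 cell. Ms4a4c was at 732 against 132 CPM and at 1352 against 277, and Vcan, the versican gene, was higher by 2.76 and 2.93 on the log2 scale. Macrophage genes went the other way in both libraries. Ccl8, a chemokine gene, stood at 4888 CPM in control and 3849 in knockout macrophages, and had 0 and 1 UMIs in the members. Apoe, the apolipoprotein gene, was lower in members by log2 differences of -6.66 in control and -3.02 in knockout, and Ctsl, the cathepsin L gene, by -1.84 and -2.57. Both cell sets were chosen partly on C1q genes, so these values describe the sets and test nothing.

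**Figure D2:**
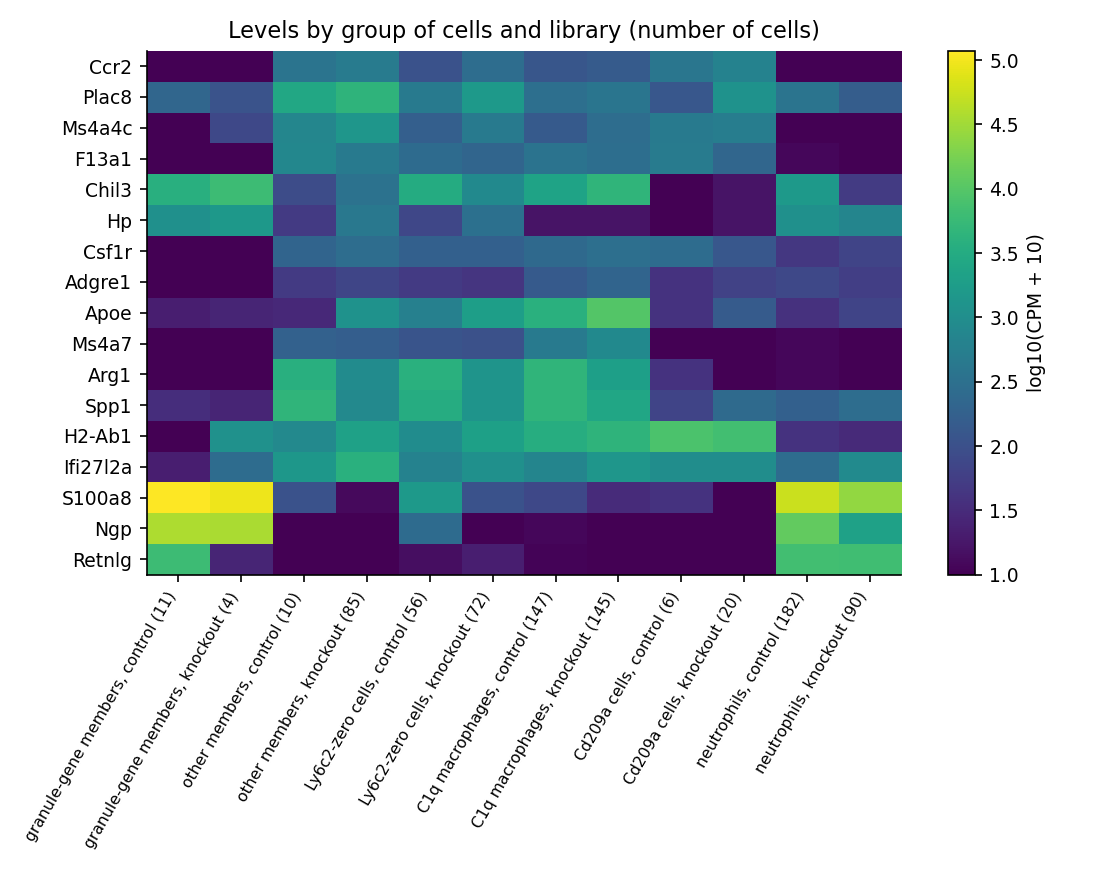
Heat map of log10(CPM + 10) for 17 genes in rows across 6 groups of cells in both libraries in columns. Ngp and S100a8 are bright in granule-gene members and neutrophils (Ngp 37280 and 12240 CPM in control) and dark in monocyte-gene members, where Plac8 reaches 2793 CPM in control and 4428 in knockout.

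Porcn itself was too scarce in these cells to check the genotype. It had 0 UMIs in the 21 control members and 2 UMIs in 2 of the 89 knockout members, against 1119 UMIs in 8895 control and 502 in 5504 knockout epithelial barcodes. A 3′ read can also come from a recombined transcript that keeps its end. Wls, which carries Wnt proteins to the cell surface, had 5 control and 26 knockout UMIs in the monocyte-gene members. The 19 Wnt ligand genes together had 0 UMIs in control members and 6 in 4 knockout members, and none reached 20 UMIs. Of the genes for Wnt secretion, receptors and targets, 6 reached 20 UMIs in the monocyte-gene members, and 0 of them differed by 2-fold or more in either direction.

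Members were more frequent in the knockout library. They were 0.180% (0.111 to 0.275) of kept control barcodes and 0.823% (0.662 to 1.01) of kept knockout barcodes, a ratio of 4.57 (2.82 to 7.75). The kept barcodes with a UMI of Ptprc, the pan-leukocyte gene, numbered 1181 in control and 3713 in knockout. Relative to these numbers the 21 and 89 members came to 1.78% and 2.40%, and the ratio of 1.35 (0.831 to 2.28) included 1. Members were counted whether or not they held a Ptprc UMI, so they are not all among the Ptprc barcodes by definition. Among members, C1q macrophages and the Ly6c2-zero barcodes together they were 9.38% (5.90 to 14.0) in control and 29.1% (24.1 to 34.5) in knockout, a ratio of 3.1 (1.91 to 5.26). The kinds differed in this: monocyte-gene members alone gave ratios of 9.17 (4.75 to 19.8), 2.70 (1.40 to 5.84) and 6.22 (3.22 to 13.4) over the 3 denominators. Granule-gene members were 11 of 11664 and 4 of 10808 kept barcodes, a ratio of 0.392 (0.0911 to 1.32). Over the Ptprc barcodes their ratio was 0.116 (0.0269 to 0.390), and over the monocyte and macrophage set 0.266 (0.0618 to 0.898). Spread between mice is not in these intervals.

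Knockout and control members were compared as UMIs summed per library, in CPM, with a log2 ratio of knockout over control after adding 1 UMI. Genes with at least 20 UMIs were compared, and a gene past 2-fold is called higher or lower without a test. Over all members, 19.0% of 4062 genes were higher and 7.46% lower, with a median log2 ratio of 0.27. The 12 genes ranked lowest in knockout by the naming rule included 6 known from neutrophils and their precursors: Retnlg (535 control and 1 knockout UMIs), S100a9 (17958 and 9136), S100a8 (10058 and 5699), Mmp8, Wfdc21 and Pglyrp1. All 9 compared genes of the neutrophil list were lower, at a median of -2.71. That list differed in the members as the granule-gene share did, so each value below is for the monocyte-gene members unless other cells are named. These are 10 control and 85 knockout cells with 51922 and 394342 UMIs. Where the median of a list given below moves, its value over all members stands beside it, while single genes are given without it. In the monocyte-gene members 11.3% of 3328 compared genes were higher in knockout, 12.3% were lower, and the median was -0.12. The added UMI weighs more in the smaller control sum, so ratios of genes with few UMIs lean towards lower in knockout. Over all members, adding 0.5 UMI gave 895 genes higher and 298 lower, against 772 and 303 with 1 UMI.

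Interferon-response genes were higher in the knockout monocyte-gene members. Of 37 compared type I interferon response genes, 14 were higher and 0 lower, with a median log2 ratio of 0.81 against -0.12 for all compared genes (0.68 with genes lacking control UMIs set at their floor). Over all members 31 of the 37 were higher and the median was 1.74. Of 23 interferon gamma response genes, 14 were higher and 1 lower, with a median of 1.07 (2.27 over all members, and 0.05 when the rule was applied after thinning to 2000 UMIs). In C1q macrophages, where 2.81% of 7834 genes were higher and 3.37% lower, 10 of 36 type I genes and 2 of 26 interferon gamma genes were higher, at medians of 0.62 and 0.31. Whether the members' difference exceeds that of the macrophages was not tested.

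The promoters of 3 compared interferon genes are shown, Ifit1 of the type I list and Cxcl10 and Gbp2 of the interferon gamma list. Both lists are rich in the same short sequence, the core of the interferon-stimulated response element: GAAA, any 2 bases, GAAA (on the other strand TTTC, any 2 bases, TTTC). They are RefSeq windows on GRCm38.p6 from 250 bases before to 50 after the start, read along the gene, and capitals mark the match. Cxcl10 lies at chr5:92348840-92349139 on the minus strand, Gbp2 at chr3:142620413-142620712 on the plus strand and Ifit1 at chr19:34640639-34640938 on the plus strand, the last with 2 matches.
Cxcl10: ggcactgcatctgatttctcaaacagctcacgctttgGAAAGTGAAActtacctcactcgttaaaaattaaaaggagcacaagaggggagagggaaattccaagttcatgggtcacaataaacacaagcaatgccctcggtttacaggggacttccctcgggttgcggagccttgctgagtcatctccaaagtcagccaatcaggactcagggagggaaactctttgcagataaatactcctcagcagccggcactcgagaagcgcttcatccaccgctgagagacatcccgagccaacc
Gbp2: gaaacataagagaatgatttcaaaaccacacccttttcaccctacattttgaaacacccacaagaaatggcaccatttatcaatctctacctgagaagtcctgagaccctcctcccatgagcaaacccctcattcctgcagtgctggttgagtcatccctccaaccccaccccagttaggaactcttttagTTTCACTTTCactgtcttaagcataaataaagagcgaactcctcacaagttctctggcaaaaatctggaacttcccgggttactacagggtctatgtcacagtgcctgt
Ifit1: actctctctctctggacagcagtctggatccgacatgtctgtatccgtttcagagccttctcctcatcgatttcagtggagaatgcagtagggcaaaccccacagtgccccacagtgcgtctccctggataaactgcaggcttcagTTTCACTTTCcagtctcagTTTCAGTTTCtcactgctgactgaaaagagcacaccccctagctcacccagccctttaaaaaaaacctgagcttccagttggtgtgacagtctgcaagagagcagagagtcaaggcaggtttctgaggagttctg
The sequence on either strand was in 943 of 27025 promoter windows (3.49%). It was in 19 of 31 type I interferon promoters (61.3%) and 12 of 17 interferon gamma promoters (70.6%), lists with no gene in common. It was in 0 of 7 MHC class II and 0 of 11 classical monocyte promoters, but in 5 of 17 MHC class I promoters (29.4%). CXC chemokine promoters had it in 2 of 7 and immune suppression promoters in 3 of 14. Among genes named by rule in the monocyte-gene members, 1 of 8 promoters of the higher genes had it. Of the lower genes 3 of 8 did, so the sequence did not mark the higher side. A match is a description of the letters in these windows and says nothing on binding in these cells.

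Genes of the type I list differed among themselves. Ifi27l2a, an interferon-induced gene (chr12:103442167-103443680, minus strand), had 75 control and 1534 knockout UMIs, 1444 against 3890 CPM, a log2 ratio of 1.41 (1.09 to 1.78). After every cell was thinned to 1000 UMIs it was found in 40.0% of the control members (4 of 10, interval 12.2 to 73.8) and 92.9% of the knockout members (79 of 85, interval 85.3 to 97.4). In T cell barcodes the thinned shares were 19.2% and 41.0%. Ifitm3, an antiviral membrane protein gene, had 165 and 2481 UMIs and a ratio of 0.98 (0.76 to 1.22). Isg15, the interferon-induced ubiquitin-like gene, had 71 and 425 UMIs, with a ratio of -0.36 (-0.71 to 0.04), and Bst2, the tetherin gene, stood at 0.04. The thinned share for Isg15 was 40.0% in both libraries.

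Ifi44 had 1 control UMI in 1 cell and 107 knockout UMIs in 52 of 85 cells, a log2 ratio of 2.83 (1.31 to 9.13). Samhd1, a nucleotide hydrolase that limits retroviruses, had 9 and 322 UMIs, a ratio of 2.09 (1.29 to 3.38), and was found in 73 of 85 knockout cells. The guanylate-binding gene Gbp2, whose promoter is printed above, had 3 and 128 UMIs and Ifit1 had 2 and 71. Their log2 ratios were 2.09 (0.91 to 4.79) and 1.66 (0.32 to 5.30). Cxcl10, a chemokine that attracts T cells through Cxcr3, had 20 UMIs in 4 control cells and 454 in 34 knockout cells, a ratio of 1.51 (0.94 to 2.30). Its relative Cxcl9 had 1 and 310 UMIs, a ratio of 4.36 (2.86 to 10.66), but sat in only 15 of 85 knockout cells, with 86 UMIs in the richest. Irf7, an interferon-induced transcription factor gene, was at 12 and 267 UMIs (1.44). Gbp2, Ifit1 and Irf7 were chosen for display after their values had been seen.

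The MHC class II genes were higher together. Of 7 compared genes 5 were higher in knockout and 0 lower, with a median log2 ratio of 1.31, against 2.57 over all members. When the rule was applied to cells thinned to 2000 UMIs (12 control and 85 knockout cells) the median was 0.18. The invariant chain gene Cd74 had 99 control and 2571 knockout UMIs, 1907 against 6520 CPM, a ratio of 1.76 (1.48 to 2.08). Per control cell, from the deepest to the shallowest, Cd74 had 4, 23, 17, 0, 2, 38, 0, 12, 3 and 0 UMIs. In knockout cells it ran from 0 to 150 with a median of 18, so the cells of the libraries overlapped widely. H2-Aa was at 1.19 (0.82 to 1.62), H2-Ab1 at 1.31 (0.90 to 1.82) and H2-Eb1 at 1.70 (1.21 to 2.35), while their regulator Ciita was at 0.15.

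Summed over H2-Aa, H2-Ab1 and H2-Eb1, 2 of the 10 control members had 0 UMIs and 2 had 20 or more. Of the knockout cells, 21 of 85 had 0 and 35 had 20 or more. Thinned to 1000 UMIs, H2-Ab1 was found in 5 of 10 control and 54.1% of knockout members, and Cd74 in 5 of 10 and 75.3%. The H2-Ab1 shares lay close together at equal depth while the summed level was higher, but 5 of 10 has an interval of 18.7 to 81.3%. Of the 43 control UMIs of H2-Ab1, 60.5% were in 1 cell. The Cd74 shares lay further apart. Epithelial barcodes had H2-Ab1 in 24.7% and 31.8% and T cell barcodes in 3.50% and 5.10% at that depth. In C1q macrophages 0 of 8 MHC class II genes were past 2-fold, at a median of 0.37. MHC class I genes were also compared in the members: 0 of 18 were past 2-fold, at a median of 0.27 (1.02 over all members, with 9 higher), with B2m at -0.03 and H2-D1 at 0.67.

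Of 16 classical monocyte genes 4 were higher and 1 lower, with a median of 0.63. Plac8 was at 0.66 (0.42 to 0.92), the calcium-binding protein gene S100a4 at 0.69 (0.35 to 1.09), Ms4a4c at 0.85 (0.41 to 1.40) and Fn1 at 0.59 (0.05 to 1.29). Hp, the haptoglobin gene (chr8:109575128-109579172, minus strand), had 2 UMIs in 1 of the 10 control members and 163 spread over 41 of 85 knockout members, a ratio of 2.85 (1.55 to 6.48). Hp was as high as 1083 CPM in control neutrophils, against 413 in the knockout members and 38.5 in the control members, while Ngp, Camp and Ltf were at 0 in both. The 10-gene neutrophil list summed to 424 CPM in the control and 55.8 in the knockout members, mostly Mmp8 with 15 and 18 UMIs (-2.68). Ccr2 was at 0.36 (-0.26 to 1.19), an interval that includes 0. Thinned to 1000 UMIs, Ccr2 was in 5 of 10 control members, an interval of 18.7 to 81.3%, and in 25.9% of the knockout members. The knockout share lies within that interval, so these shares set no direction for Ccr2. Plac8 was in 6 of 10 and 87.1%.

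Apoe ranked first among the genes higher in knockout. Apoe (chr7:19696109-19699188, minus strand) had 1 UMI in the 10 control cells and 468 in 41 of 85 knockout cells, a log2 ratio of 4.95 (3.46 to 11.25). After thinning it was in 0 of 10 control cells, which by 3 counts allows a share of cells with a UMI of up to 30.0%, and in 27.1% (18.0 to 37.8) of knockout cells, against 3.50% and 2.50% of T cell barcodes. C1q macrophages had more in both libraries, at 3898 and 9653 CPM, against 19.3 and 1187 CPM in the members. Other macrophage differentiation genes did not follow Apoe. Of the 13 compared 2 were higher and 2 lower, at a median of -0.29, with Lgmn, a lysosomal protease gene, at -0.53 (-1.14 to 0.25). Over all members the same list stood at 0.90.

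Of the 10 Ly6 family genes listed beside Ly6c2, 3 were compared and 2 of these were higher, Ly6a and Ly6i. The list's median was 2.18 (2.41 over all members), and -0.092 when the rule was applied after thinning to 2000 UMIs. Ly6a, which encodes Sca-1 and responds to interferon, had 6 UMIs in 4 control cells and 240 in 38 knockout cells, a ratio of 2.18 (1.25 to 3.86), which became -0.38 when the rule was applied after thinning to 2000 UMIs. Ly6i had 0 control UMIs and 90 in 29 knockout cells, at least 3.95-fold higher from a floor of 3 counts over the control group. In C1q macrophages Ly6i stood at 14.2 CPM in control and 70.7 in knockout. Whether reads were divided uncertainly between Ly6i and its relative Ly6c2 was not tested. T cell and epithelial barcodes had Ly6a in 32.0% to 46.5% at 1000 UMIs, against 0 of 10 control and 23.5% of knockout members. Their summed Ly6a was 510 and 630 CPM in T cell and 813 and 992 CPM in epithelial barcodes, against 116 and 609 CPM in the members. These barcodes may hold Ly6a of their own, so their shares are no measure of background. The part of background in the members' Ly6a was not tested.

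Immediate early and heat shock genes split. Of 19 compared 8 were higher and 0 lower, at a median of 0.35 (0.24 with genes lacking control UMIs at their floor, and 0.71 over all members). Hspa1b, an inducible heat shock protein gene, had 1 control and 238 knockout UMIs, the latter in 50 of 85 cells, a ratio of 3.98 (2.48 to 10.28). Its neighbour Hspa1a, a near-identical copy whose reads may be divided uncertainly, had 13 and 370 UMIs (1.80, 1.11 to 2.83). Fos, an immediate early transcription factor gene, had 7 and 311 UMIs (2.36, 1.49 to 3.87), and Ppp1r15a, a stress response gene, 1 and 102 (2.76, 1.24 to 9.06). Jun was at 0.35 and Hspa8 at 0.03, with intervals that include 0. The same list stood at 0.76 with 5 of 20 higher in C1q macrophages, and Hspa1b was also more frequent in knockout T cell barcodes, at 23.3% against 14.5% after thinning. The part of tissue dissociation in these genes was not tested.

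**Figure D3:**
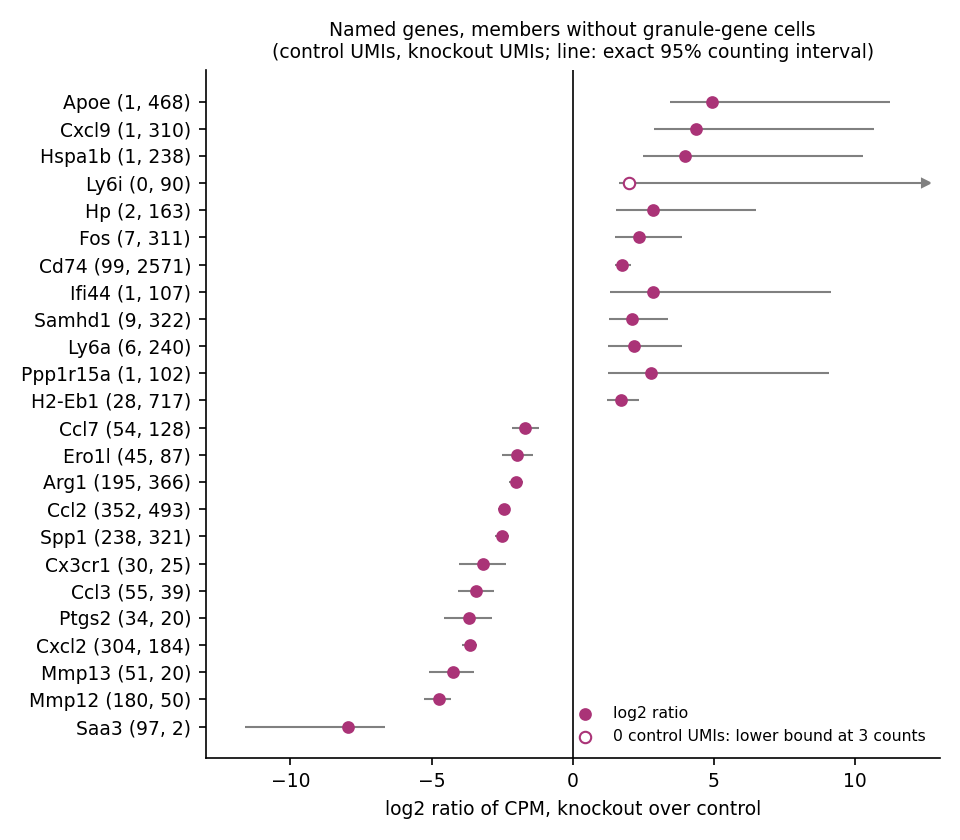
Log2 ratio of knockout over control for the 24 genes named by rule in the monocyte-gene members, with 95% counting intervals as bars. The 12 higher genes run from H2-Eb1 at 1.70 to Apoe at 4.95, with wide bars where control had 0 or 1 UMI, the open marker is the lower bound for Ly6i, and the 12 lower genes reach -7.95 for Saa3.

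The genes lower in knockout were led by secreted inflammatory and tissue-remodelling products, and for many of them 1 control cell held most of the UMIs. That cell was the deepest control monocyte-gene member, with 12259 UMIs, 1 Ly6c2 UMI and 9 Lyz2 UMIs. It held 303 of the 304 control UMIs of Cxcl2, a neutrophil-attracting chemokine, 95 of 97 of the acute-phase gene Saa3, all 34 of Ptgs2, the cyclooxygenase 2 gene, and 195 of 238 of Spp1, the osteopontin gene. With it, the log2 ratios were -3.65 for Cxcl2, -7.95 (-11.59 to -6.63) for Saa3, -3.66 for Ptgs2 and -2.49 (-2.74 to -2.25) for Spp1. Without it, Cxcl2 stood at 3.22, Ptgs2 at 1.08 and Spp1 at -0.44. Mmp13 moved from -4.23 to -1.73, Ccl3 from -3.41 to -0.99 and Ero1l from -1.99 to -0.85. Saa3 had 2 UMIs left in each library without it, too few to be compared. The low values of Cxcl2, Saa3, Ptgs2 and Spp1 thus rested on 1 cell of the 10. Under the rule applied to cells thinned to 2000 UMIs, Cxcl2 stood at 2.39 and Ero1l at 0.034.

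Arg1, Ccl2, Ccl7, Mmp12 and Cx3cr1 were lower with or without that cell. Arg1 (chr10:24915221-24927484, minus strand), which encodes the arginase that depletes arginine, had 78, 47, 7, 0, 1, 0, 9, 42, 6 and 5 UMIs in the control cells from the deepest to the shallowest. In the knockout cells it had 0 to 67 UMIs with a median of 0, and 28 of 85 had any. The summed level was 3756 against 928 CPM, a log2 ratio of -2.02 (-2.27 to -1.76), and -1.68 without the deepest control cell. After thinning, Arg1 was in 80.0% of the control members (8 of 10, interval 44.4 to 97.5) and 23.5% of the knockout members (20 of 85, interval 15 to 34), and in 0% and 0.200% of T cell barcodes. Arg1 was also lower in knockout C1q macrophages, at 2000 against 4539 CPM.

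Mmp12, the macrophage elastase gene, had 180 UMIs from 5 of the 10 control members and 50 from 9 of the 85 knockout members, at -4.75 (-5.26 to -4.31) and at -4.08 without the deepest cell. All 180 were in control members with 1 or 2 Ly6c2 UMIs, and over all members with at least 3 Ly6c2 UMIs the ratio was 3.73. Ccl2, the ligand of Ccr2, had 352 and 493 UMIs, at -2.44 (-2.64 to -2.24) and -2.47. It was in 5 of 10 control and 46 of 85 knockout members, and 48.9% of its control UMIs were in 1 cell, not the deepest. Ccl7, another ligand of Ccr2, was at -1.70 and -1.79, in 5 of 10 and 23 of 85 members, with 57.4% of its control UMIs in 1 cell. Over members with at least 2 Ly6c2 UMIs, of which control had 5, Ccl7 stood at 0.023. Cx3cr1, the fractalkine receptor gene of non-classical monocytes, was at -3.18 and -3.57, but 93.3% of its 30 control UMIs were in 1 cell. Of 9 CC chemokine genes 7 were lower and 1 higher, at a median of -1.70 (-0.50 over all members), with Ccl6 at -1.26, Ccl9 at -1.12 and Ccl4 at -0.54. In C1q macrophages 0 of 11 were lower, at a median of -0.45. The immune suppression list had 6 of 15 genes lower and 0 higher, at a median of -0.56 (0.07 over all members), of which Tgfbi stood at 0.02 and the interleukin 1 antagonist gene Il1rn at 0.79 (0.12 to 1.74).

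Glycolysis and hypoxia genes stood mostly lower in the monocyte-gene members. Of 23 compared 7 were lower in knockout and 0 higher, at a median of -0.76. Over all members the median had the other sign, 0.17, with 1 gene lower and 0 higher. Gapdh had 151 and 860 UMIs (-0.42, -0.67 to -0.16), Mif 74 and 364 (-0.64, -0.99 to -0.25), Pkm -0.49 and Tpi1 -0.37. The list's sum ran from 69.1 to 209 per 10000 UMIs over the 10 control cells, with a median of 126, and from 0 to 236 over the 85 knockout cells, with a median of 56.4. In C1q macrophages the list stood at -0.01.

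Several other lists had few genes past 2-fold in the monocyte-gene members and higher medians over all members. Lysosome and cathepsin genes had 0 of 18 higher and 2 lower, at a median of 0.04 (0.98 over all members, with 9 higher), with Npc2 at 0.21 and Ctss at 0.18. Migration and adhesion receptors had 1 of 19 on each side, at -0.05 (0.44 over all members). Pattern recognition genes had 1 of 14 higher and 2 lower, at -0.08 (1.07 over all members), with Cd14 at -0.35. Fc and complement receptors had 0 of 10 past 2-fold, at -0.04 (0.84 over all members). Costimulatory and checkpoint ligands had 1 of 6 higher, at 0.28 (1.21 over all members), and Cd274, which encodes PD-L1, was at 0.28 (-0.37 to 1.17). Inflammatory cytokine genes had 1 of 11 on each side, at 0.36 (0.82 over all members), with Il1b at 0.41 (-0.32 to 1.45). Over the alternatives for the monocyte-gene members this list ran from 0.35 to 1.68.

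**Figure D4:**
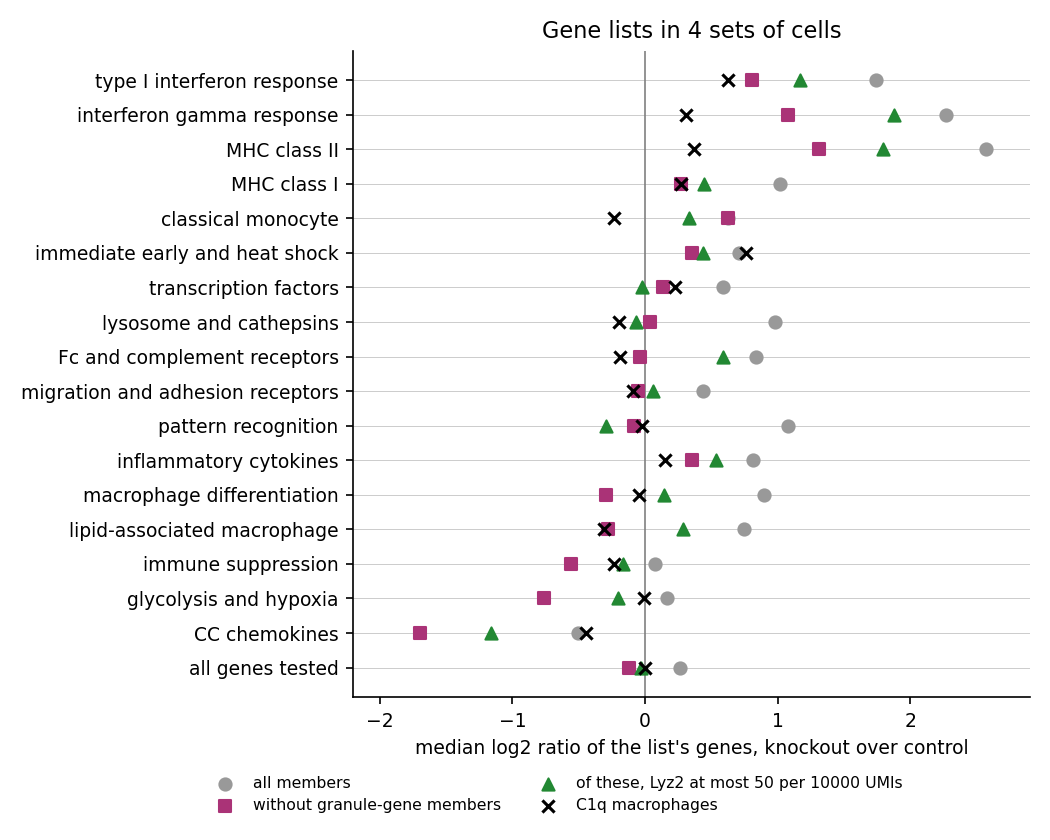
Median log2 ratio of knockout over control for 17 gene lists and all compared genes in rows, with 1 marker each for all members, monocyte-gene members, monocyte-gene members of low Lyz2 and C1q macrophages. The interferon and MHC class II lists lie to the right of 0 in every set (type I interferon 1.74, 0.81, 1.17 and 0.62), and CC chemokines to the left (-0.50, -1.70, -1.16 and -0.45).

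The knockout members spread over a range of Lyz2 that the control members did not cover. Per 10000 UMIs, Lyz2 ran from 6.46 to 44.7 in the 10 control cells, with a median of 18.8, and from 9.16 to 532 in the 85 knockout cells, with a median of 67.9. With a split at 100 per 10000, chosen after seeing the spread, 47 knockout cells were Lyz2-low and 38 Lyz2-high, and 4 lay within 25 of the split. All 10 control cells were on the low side. Lyz2 is part of the rule, so what follows describes the knockout library and is no test. Median depth was 4122 UMIs in Lyz2-low and 4716 in Lyz2-high cells, and median mitochondrial shares were 0.726% and 1.11%.

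Lyz2-high cells had more of several classical monocyte genes, though not of all. Of 3000 compared genes 9.73% were higher and 13.8% lower in Lyz2-high than in Lyz2-low cells, and of 16 classical monocyte genes 7 were higher and 2 lower, at a median of 0.55. Hp was found in 32 of 38 Lyz2-high and 9 of 47 Lyz2-low cells, at 688 and 182 CPM. Ifitm6 was higher by 2.59 on the log2 scale, Mgst1 by 2.49, Chil3 by 1.83 and S100a4 by 1.55. These genes and Hp are all from the higher side of the list. Ly6c2 itself stood at 1481 and 1485 CPM, and Ccr2 was at 566 and 430 CPM.

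Lyz2-low cells had nearly all of the Arg1 and Spp1. Arg1 had 365 UMIs in 27 of 47 Lyz2-low cells and 1 UMI in the 38 Lyz2-high cells, 1705 against 5.55 CPM. Spp1 had 316 and 5 UMIs, and Gpnmb, a gene of lipid-laden macrophages, 66 and 0. Of the glycolysis and hypoxia genes 18 of 22 were lower in Lyz2-high cells, at a median of -1.63, with Gapdh at -1.78 and Hilpda, a hypoxia-induced lipid droplet gene, at -3.92. Of the macrophage differentiation genes 8 of 12 were lower and 1 higher (-1.63), and of the lipid-associated macrophage genes 8 of 11 were lower (-1.82). Of the type I interferon genes 17 of 37 were lower (-0.84), with Rsad2, the viperin gene, at -2.61 and Isg15 at -1.42, while Ifitm3 was at 0.21. Interferon genes and glycolysis genes were thus both lower on the Lyz2-high side, although they stood in opposite directions between the genotypes.

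**Figure D5:**
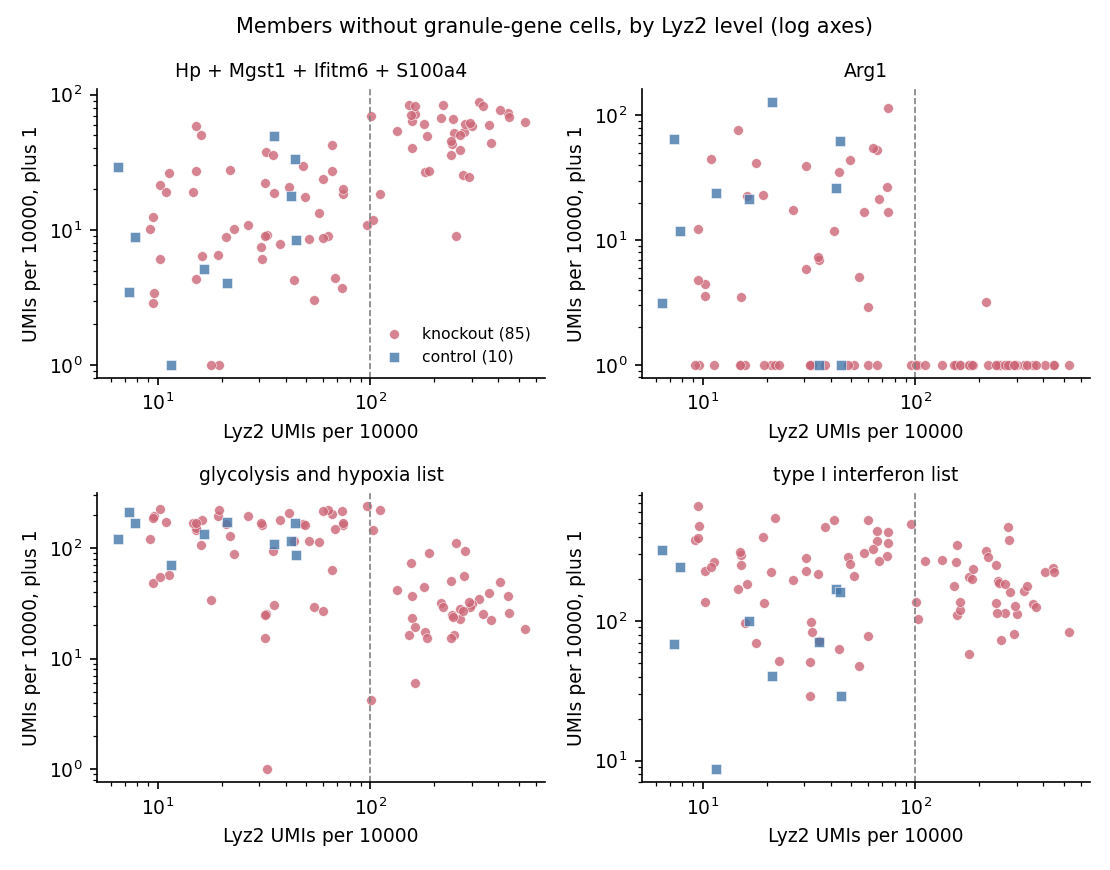
For each monocyte-gene member, 4 panels plot the UMIs per 10000 of Hp, Mgst1, Ifitm6 and S100a4 together, of Arg1, of the glycolysis list and of the type I interferon list against Lyz2 per 10000, with a dashed line at 100. Control cells lie at 6.46 to 44.7 Lyz2 per 10000 and knockout cells at 9.16 to 532, and Arg1 is near 0 right of the line.

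The genotypes were therefore also compared over members of at most 50 Lyz2 per 10000 UMIs, all 10 control cells and 34 knockout cells, a limit chosen after seeing the data. Of 1537 genes 9.56% were higher in knockout and 6.44% lower, with a median of -0.03. In that range 19 of 32 type I interferon genes were higher and 0 lower, at a median of 1.17, and 13 of 16 interferon gamma genes were higher, at 1.88. Of 7 MHC class II genes 6 were higher, at 1.79. Ifi27l2a stood at 1.49, Cd74 at 2.16, Ifi44 at 2.87, Cxcl10 at 1.84 and Apoe at 5.22, each as high as or higher than over all monocyte-gene members. The CC chemokine list stood at -1.16, with 5 of 9 genes lower and 1 higher.

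The glycolysis list came to -0.20 in this range, with 1 of 20 genes lower, against -0.76 over the full range of Lyz2. The classical monocyte list came to 0.33, with 0 of 11 higher and 1 lower, against 0.63. Fewer knockout cells and fewer genes of each list entered this comparison, and the cause of the shift was not tested. The summed level of Arg1 in Lyz2-low knockout cells, 1705 CPM, was still under the 3756 CPM of the control cells.

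Markers of other cell types were low in the monocyte-gene members but not equal between libraries. The 10 fibroblast genes summed to 116 CPM in control (6 UMIs, 7 genes at 0) and 472 CPM in knockout (186 UMIs in 17 of 85 cells, up to 107.5 per 10000 in a single cell). The 11 plasma cell genes summed to 212 and 446 CPM, the 12 epithelial or tumour genes to 308 and 71.0, the 10 neutrophil genes to 424 and 55.8, and the 10 acinar genes to 38.5 and 114. The T cell list stood at 173 and 178 CPM, nearly all of it Il7r with 9 and 64 UMIs, and the mast cell list at 0 UMIs in both. The part of these signals in the differences was not tested. Genotype, the makeup of the pools and the library preparation cannot be told apart, since each genotype is 1 library.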

How the data were processed

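Live cells of control and knockout tumours were profiled in 1 pooled library per genotype. The authors deposited raw UMI counts per gene and barcode, not normalised, for 32285 genes. Per the file headers the matrices come from Cell Ranger 8.0.0, while the submitters' processing notes name Cell Ranger 3.1.3 and build mm10. The deposited matrices held 13766 control and 12251 knockout barcodes, of which 11664 and 10808 were kept.

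Members, gene lists and the Lyz2 limits were chosen with earlier results of these data known. UMIs were summed over the members of a library and scaled to CPM, and log2 ratios used a pseudocount of 1 UMI. Genes with at least 20 UMIs were compared. With 1 library per group no test was run and no p-value is given. Intervals are exact Poisson, Clopper-Pearson or conditional binomial at 95%, and the floor for a count of 0 is 3 counts over the group. Shares at equal depth came from cells thinned to 1000 UMIs without replacement, and no member was shallower. Genes were named when they had at least 50 UMIs and ranked among the 12 highest or 12 lowest by the interval bound nearest 0, passing over genes over 10 times higher in another cell type of that library (Ebf1), plus up to 4 genes of most UMIs in each list. Genes named beyond that rule, among them those in the comparisons of Lyz2 range, were chosen after their values were seen. The 37 lists held 593 genes, 8 of them unmatched. Single-gene values of a few list members are not reported here. Doublets were called by Scrublet (expected rate 0.08) in scanpy 1.11.5, and members it marked were removed only as an alternative. Gene positions are from GENCODE M21 on GRCm38, where 32235 identifiers matched. The scripts, tested on simulated data, used python 3.11.15, numpy 2.4.6, scipy 1.17.1, pandas 2.3.3 and matplotlib 3.10.9. The alternatives covered the filters on barcodes and genes, the rule's thresholds, doublets, weighting, pseudocount and centring, and those that leave out granule-gene members, limit Lyz2, or drop the deepest control member were added after seeing the data.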

Additional observations from a re-analysis of the deposited data

How the results depend on the processing

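No paired analysis was possible because each genotype is 1 library, and for the same reason no replicate could be left out. With at least 1 Ccr2 UMI per member (7 control and 63 knockout cells), the ratio of shares was 9.71, genes higher numbered 377, and the medians were -0.58 for macrophage differentiation and -0.35 for pattern recognition. Without the granule-gene members the ratio of shares was 9.17, genes higher numbered 376, and the medians were 0.81 for type I interferon, 1.31 for MHC class II, -0.29 for macrophage differentiation and -0.084 for pattern recognition. With all members set over the number of barcodes with a Ptprc UMI, the ratio was 1.35. Over all members the MHC class II median was 3.60 with at least 2 and 3.77 with at least 3 Ly6c2 UMIs, where Mmp12 stood at 3.73. It was 1.95 with members weighted alike. With a C1q sum of 1 to 4 only, 2 control against 9 knockout cells, it was 0.44, with 121 genes higher and 38 lower. At least 100 UMIs per gene left 157 genes higher and 31 lower, at least 5 gave 1552 and 1139, and centring on the median of all genes gave 498 lower.

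Applying the rule after thinning each cell to 2000 UMIs gave 412 genes higher, 142 lower and an MHC class II median of 1.45 over all members. There the monocyte-gene members were 12 control and 85 knockout cells, with granule-gene cells set at 20 S100a8 and S100a9 UMIs. They gave 148 genes higher, 188 lower, MHC class II at 0.18, CXC chemokines at 0.22, Cxcl2 at 2.39, Ero1l at 0.034, Ly6a at -0.38 and the Ly6 family at -0.092. Why MHC class II and Ly6a moved there was not tested. In the monocyte-gene members of at most 50 Lyz2 per 10000 UMIs, 147 genes were higher and 99 lower. Without the deepest control cell CXC chemokines stood at 2.24, Cxcl2 at 3.22 and Ptgs2 at 1.08. With at least 2 Ly6c2 UMIs, 5 control cells, they stood at 2.85 for CXC chemokines, 3.78 for Cxcl2 and 0.023 for Ccl7. Over these alternatives the monocyte-gene medians ran from 0.47 to 1.17 for type I interferon and 0.05 to 1.88 for interferon gamma. For MHC class II they ran from 0.18 to 1.79 and for glycolysis from -0.84 to -0.20. None of these ranges crossed 0, but the ends at 0.05 and 0.18, both under the thinned rule, leave little difference. Other lists crossed 0, among them macrophage differentiation (-0.76 to 0.14), MHC class I (-0.08 to 0.44) and CXC chemokines (-1.26 to 2.85). Depth limits the control side most: its 10 monocyte-gene cells held 51922 UMIs, and genes with 1 control UMI have intervals over several log2 units.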

Other observations

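The granule-gene members differed between libraries in ways that small numbers limit. Retnlg, a gene of later neutrophil stages, had 535 UMIs in 9 of 11 control cells and 1 UMI in the 4 knockout cells. Mki67, the proliferation gene, had 26 UMIs in 4 of 11 control cells and 46 UMIs in 4 of 4 knockout cells. Chil3 had 310 and 371 UMIs. The knockout cells were deeper, at 8540 to 18904 UMIs against 1503 to 16789, so the shares of cells with a UMI are not at equal depth. One knockout granule-gene member of 16342 UMIs held 555 Ngp UMIs together with 132 Cd74, 67 H2-Ab1 and 27 Cxcl9 UMIs, and Scrublet did not mark it. The remaining 3 had at most 1 Cd74 UMI each.

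In the knockout monocyte-gene members, Ebf1, a B cell and stromal transcription factor gene passed over by the naming rule, had 64 UMIs in 3 cells, with 40 in a single cell of 12369 UMIs, the deepest of the 85. That cell also held all 15 Ly6c1 UMIs of the members and 29 Fn1 UMIs, with 0 of Ccr2, Cd74 and H2-Ab1. It had 74 Lyz2 and 22 Plac8 UMIs. Its identity was not tested, and it stayed in the sums of the monocyte-gene members.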
